A study of Arabidopsis thaliana with 12 samples.

Results

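Jasmonates are lipid hormones that plants make from polyunsaturated fatty acids of the chloroplast. A 13-lipoxygenase adds oxygen to linolenic acid, allene oxide synthase and allene oxide cyclase convert the product into 12-oxo-phytodienoic acid (OPDA), OPDA reductase and rounds of beta-oxidation in the peroxisome turn it into jasmonic acid, and conjugation with isoleucine gives the active hormone, JA-Ile. JA-Ile brings the receptor COI1 together with JAZ repressors, which are then degraded, and the MYC transcription factors are released. Cytochrome P450 enzymes of the CYP94 family oxidise JA-Ile and so end the signal. In leaves the pathway is best known for the response to wounding and insects, and many of its enzyme genes are themselves induced by jasmonate.

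The genes described here are 10 enzyme genes of this pathway, taken by their locus identifiers and chosen with earlier results of these data known. They are the 13-lipoxygenases LOX2 (AT3G45140), LOX3 (AT1G17420) and LOX4 (AT1G72520), the allene oxide synthase gene AOS (AT5G42650), the allene oxide cyclases AOC1 (AT3G25760), AOC2 (AT3G25770) and AOC3 (AT3G25780), the OPDA reductase OPR3 (AT2G06050) and the JA-Ile oxidases CYP94B3 (AT3G48520) and CYP94C1 (AT2G27690). They are 10 of the 6519 loci that appear in at least 1 of the 4 deposited tables of differentially expressed genes.

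Leaves of the wild-type accession Col-0 (Columbia) were taken from plants of 4 light regimes, and polyadenylated RNA was sequenced in 3 libraries per regime, which the study calls independent replicates. In the square regimes the lamp stayed at a single level all day, high in SQH and low in SQL. In the fluctuating regimes the light rose and fell as it does outdoors, at high intensity in FLH and at low intensity in FLL, and each fluctuating regime gave the same light over the day as its square partner. The series' design text, written for the DNA samples, gives 22 days of acclimation, and the midday harvest of the study's methods is likewise stated for the leaves used for DNA. The light at the moment of harvest differs between the patterns by design. By the study's alignment statistics, every library of FLL and 1 of SQL form a set distinct from the other libraries, so wherever FLL is compared the regime and that split cannot be told apart.

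The tables hold genes that the authors called with DESeq2 with a Benjamini-Hochberg adjusted p up to 0.05 and a log2 fold change of 0.5 or more in either direction. For each gene they give a mean normalised count, which is the authors' mean over all 12 libraries, and for each comparison the log2 fold change with its standard error (SE). Values per library were not used here, so the spread between replicates is seen only through the SE, and the depth per library enters none of the values. A positive fold change means higher expression in the regime named first. This was read from the SEs, since the regime with the lower count adds the larger error, and all 7 checks that the jasmonate enzymes allowed gave this reading, as did all 439 checks over the genes of the tables. The labels on the study's own plots place the sides the other way round. So does its text on the gene MCCA, where a negative value is read as a decrease from SQL to FLL. Its text on transposable elements reads an increase in SQH with FLH as more transcription under SQH, which is the reading used here. In bulk leaf RNA, fewer cells of a type and less RNA per cell cannot be told apart.

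Of 8 leaf markers, RBCS1A, RBCS1B, LHCB1.2 and LHCB1.3 were not listed in any table, and the other 4 had very high counts. RCA, which encodes Rubisco activase, had the highest mean normalised count of all 6519 listed loci (503060), and RBCS3B, a Rubisco small subunit gene, the fourth highest (272948). RCA was lower in FLH than in FLL (log2 fold change -1.83, SE 0.48, adjusted p = 0.00373 with DESeq2), opposite to the jasmonate enzymes. Of 5 root markers, PYK10, PLT1 and RHD6 were not listed in any table, and SCR and SHR, which are also used in the leaf, were listed as lower in FLH than in FLL (-1.04 and -1.20). In SQH with FLH, RCA (1.63), RBCS2B (1.84), RBCS3B (1.36), SCR (1.38) and SHR (1.68) were all higher in SQH, again opposite to the enzymes. Their part in the results was not tested.

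The enzyme genes lie on 4 chromosomes of the TAIR10.1 annotation, and none of the 10 overlaps another gene. LOX3 spans chr1:5977323-5981521 and LOX4 chr1:27308513-27312756, both on the plus strand. OPR3 (chr2:2359114-2362375, minus strand) and CYP94C1 (chr2:11809279-11811280, plus strand) are on chromosome 2, LOX2 (chr3:16525245-16529352, plus strand) and CYP94B3 (chr3:17974853-17976774, minus strand) on chromosome 3, and AOS (chr5:17097564-17099595, minus strand) on chromosome 5. The 3 cyclase genes stand in a row on the plus strand of chromosome 3. AOC1 (chr3:9403779-9405338) is separated from AOC2 (chr3:9406669-9408071) by 1330 bases, and AOC2 from AOC3 (chr3:9409160-9411090) by 1088 bases. AOC1 and AOC2 share 90.3% of their coding bases, AOC1 and AOC3 83.2%, and AOC2 and AOC3 82.4%. Near-identical copies can exchange reads. Within exons, no window of 150 bases, the read length of the study, was identical between any pair of AOC1, AOC2 and AOC3, and the longest identical runs were 47, 50 and 73 bases. Windows with mismatches or across exon junctions were not considered, so the exchange of reads was not tested. AOS, CYP94B3 and CYP94C1 each have 1 exon in the annotation, whereas LOX3 has 8.

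The windows upstream of the genes were searched for the letters CACGTG, the G-box to which MYC2 and other factors of its family bind, and for the related letters AACGTG, on both strands, from 250 bases before to 50 bases after the annotated start. CACGTG was found in 1 of the 10 genes, AOS, where it ends at the base before the start, and in 7.68% of 27443 promoters of the annotation. AACGTG was found in 4 of the 10, against 8.95% of all promoters, but only in LOX4 and AOC1 did it lie before the start, against 7.54% of all promoters. In LOX3 and AOC2 it lay after the start. A match is a description of the letters, not of a bound site. Within the 250 bases before the start, AOC1 and AOC2 also share a run of 19 bases, the longest shared by any pair of the 10 genes. It begins 117 bases before the start in AOC1 and 19 bases before it in AOC2. In AOC2 the run reaches the start, where the comparison stopped, so a longer run was not looked for. Windows of 60 bases are shown 5′ to 3′ on the strand of the gene because they hold these letters. Capitals mark AACGTG in LOX4, CACGTG in AOS and the shared run in AOC1 and AOC2, and the first 6 letters of the AOC1 window are AACGTG read on the other strand. The positions in TAIR10.1 are chr1:27308392-27308451 for LOX4, chr5:17099596-17099655 for AOS, chr3:9403641-9403700 for AOC1 and chr3:9406609-9406668 for AOC2.
LOX4: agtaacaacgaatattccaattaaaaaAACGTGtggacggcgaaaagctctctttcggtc
AOS: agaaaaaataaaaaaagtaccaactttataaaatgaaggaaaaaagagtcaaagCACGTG
AOC1: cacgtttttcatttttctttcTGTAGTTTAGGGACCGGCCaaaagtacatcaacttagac
AOC2: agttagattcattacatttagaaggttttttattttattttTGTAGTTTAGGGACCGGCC

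Expressed per kilobase of exon, so that genes can be compared, the mean level over the 12 libraries differed widely between the enzymes. LOX2, the lipoxygenase that supplies most of the jasmonate of wounded leaves, was highest at 33796 normalised counts per kb. AOS (12351), AOC2 (11534), AOC1 (8754) and OPR3 (6182) followed. The 13-lipoxygenases LOX3 (1812) and LOX4 (1260) came next. CYP94C1 (766), AOC3 (571) and CYP94B3 (520) were lowest. These are the authors' means over all regimes with no error of their own, so neighbours in this order cannot be separated.

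To see how light intensity acted under a fluctuating pattern, FLH was compared with FLL. All 10 enzyme genes were higher in FLH. Of 20865 tested genes, 9.89% were listed in either direction and 5.38% as higher in FLH. The median log2 fold change of the 10 was 3.82, against 2.20 over the 1123 genes listed as higher in FLH. No overlap or enrichment test was applied, since the genes were chosen with earlier results of these data known.

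At the entry of the pathway, LOX2 was 2.51-fold higher in FLH (log2 fold change 1.33, SE 0.42, adjusted p = 0.0246 with DESeq2). Its 95% interval began at 0.50 on the log2 scale, the lowest bound among the 10 genes. LOX3 and LOX4 rose by far more, 12.03-fold (3.59, SE 0.58) and 19.3-fold (4.27, SE 0.73), with adjusted p of 2.61e-07 and 9.63e-07. The intervals of LOX3 (2.44 to 4.73) and LOX4 (2.85 to 5.70) overlap each other, and both lie above that of LOX2 (0.50 to 2.16). AOS, the only gene for its step, was 4.85-fold higher (2.28, SE 0.51, adjusted p = 0.00045).

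The cyclases did not move by the same amount. AOC1 was 7.80-fold higher in FLH (2.96, SE 0.52) and AOC2 6.42-fold (2.68, SE 0.45), with intervals that largely coincide. AOC3, with the lowest mean normalised count of the 10 genes (948), was 16.5-fold higher (4.04, SE 0.73). Its interval (2.61 to 5.48) overlaps those of AOC1 (1.94 to 3.99) and AOC2 (1.80 to 3.56), so a larger response of AOC3 is not shown. OPR3, the reductase that commits OPDA to jasmonic acid, was 16.5-fold higher (4.05, SE 0.62, adjusted p = 2.88e-08).

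The JA-Ile oxidases had the largest fold changes of the 10. CYP94B3, which hydroxylates JA-Ile, was 45.5-fold higher in FLH (95% interval 15.6 to 133, log2 fold change 5.51, SE 0.79, adjusted p = 2.53e-09). CYP94C1, which carries the oxidation further to the carboxylated form, was 39.8-fold higher (11.6 to 136, log2 fold change 5.31, SE 0.91, adjusted p = 1.05e-06). By size of change CYP94B3 was 24th and CYP94C1 29th among the 1123 genes listed as higher in FLH, whereas LOX2 was 921st.

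**Figure D1:**
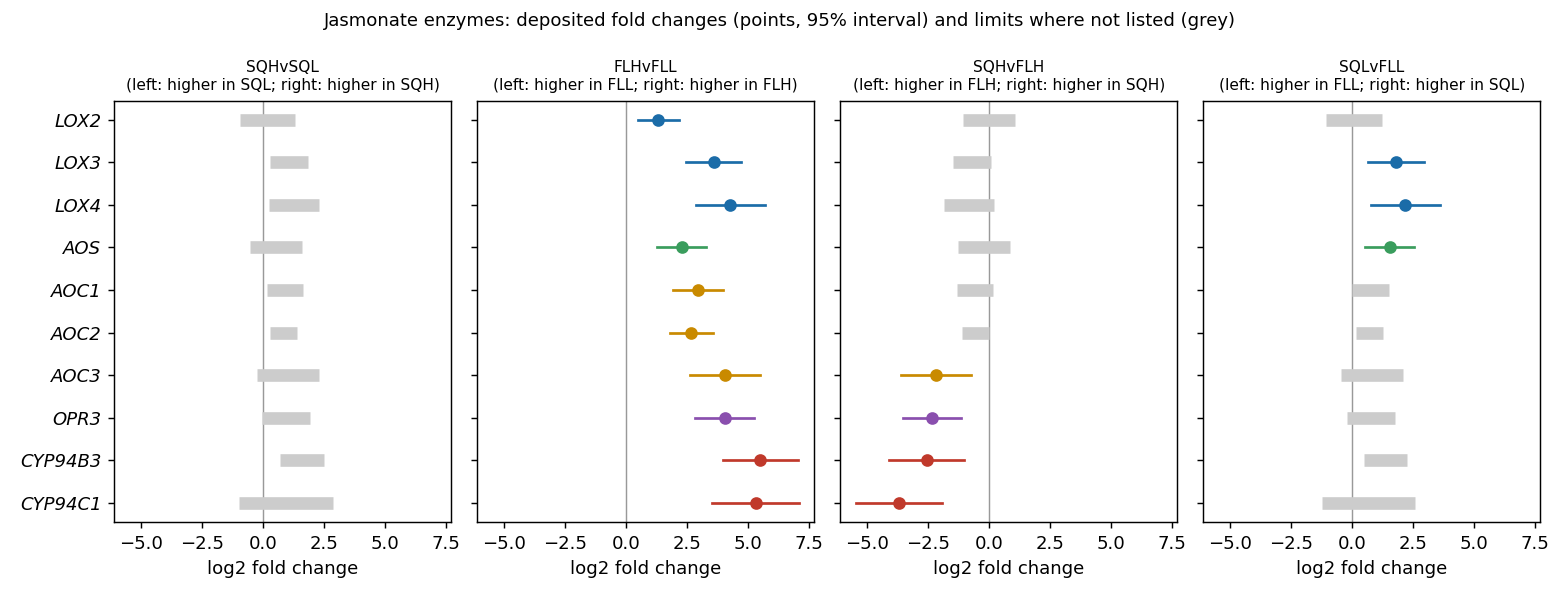
Deposited log2 fold changes of the 10 enzyme genes in the 4 comparisons (x axis, log2 units, 1 row per gene). Points mark the fold change and lines its 95% interval. Grey bars show the range left to the estimate of a gene that was not listed, without replicate error. All 10 points lie to the right of 0 for FLH with FLL, 4 lie to the left for SQH with FLH, 3 to the right for SQL with FLL, and none are shown for SQH with SQL.

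Within this comparison the genes with lower levels changed more. Across the 10 genes the log2 fold change and the log2 mean normalised count had Pearson's r = -0.91 and Spearman's rho = -0.82, and with the count per kb of exon r = -0.90 and rho = -0.90. These are correlations across genes measured in the same libraries, which are not independent replicates, and are given as a description. Across all 1123 genes listed as higher in FLH, r with the log2 mean normalised count was -0.37 and rho -0.32. Across the 417 of them with a mean count at least that of AOC3, r was 0.01. The SE also rose with the fold change in the 10 genes (r = 0.93) and in those 417 genes (r = 0.80), which the listing threshold favours. Expressed as a coefficient of variation between replicate libraries, counting noise included, the SEs correspond to 35.9% for LOX2 and 77.0% for CYP94C1. These are values of the authors' fitted model, not the observed spread of the FLH or FLL libraries.

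**Figure D2:**
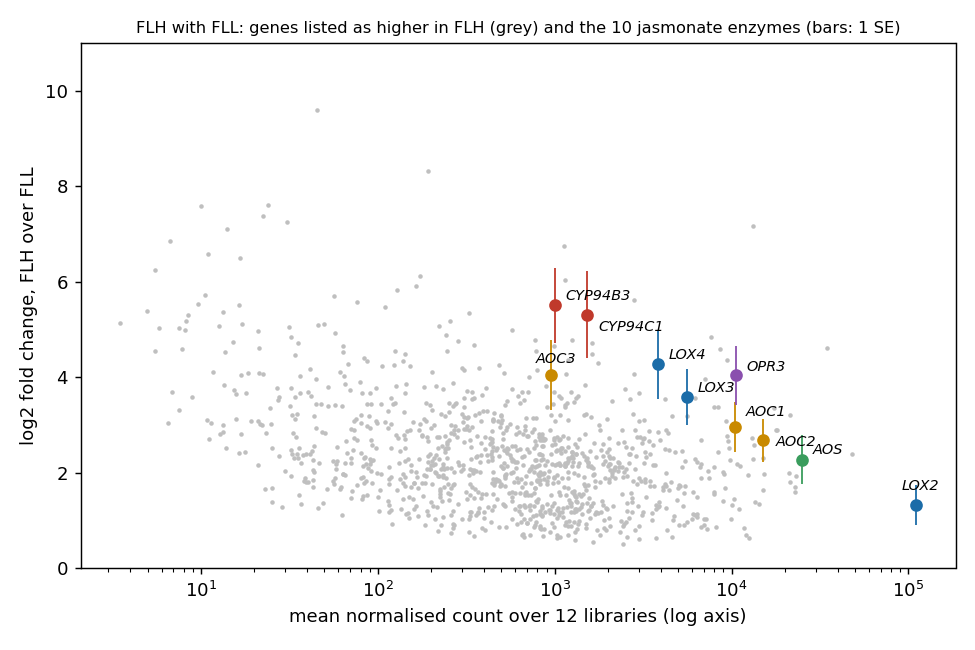
Log2 fold change of FLH over FLL (y axis) against the mean normalised count over 12 libraries (x axis, log scale) for genes listed as higher in FLH, in grey, and the 10 enzyme genes, in colour with bars of 1 SE. The enzyme genes run from CYP94B3 at the upper left (5.51) down to LOX2 at the lower right (1.33).

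The light pattern at high intensity was addressed by SQH with FLH, which shares the FLH libraries with the comparison above. Here 4 of the 10 genes were listed, and all 4 were higher in FLH. Of all tested genes, 22.2% were listed here and 12.1% as higher in FLH. The 4 are the genes of the later steps and 1 cyclase. CYP94C1 was lower in SQH by 13.02-fold (log2 fold change -3.70, SE 0.90, adjusted p = 0.000663 with DESeq2), CYP94B3 by 5.87-fold (-2.55, SE 0.78, adjusted p = 0.00862), OPR3 by 5.06-fold (-2.34, SE 0.62, adjusted p = 0.00176) and AOC3 by 4.52-fold (-2.17, SE 0.73, adjusted p = 0.0184). Their median of -2.45 compares with -1.96 over the 2529 genes listed as higher in FLH. None of the 4 passed a Bonferroni threshold over the genes tested.

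LOX2, LOX3, LOX4, AOS, AOC1 and AOC2 were not listed between SQH and FLH. A gene that was tested and not listed cannot have exceeded a Wald statistic of 2.54 in this comparison, which bounds its estimated fold change. Such bounds take the listed fold changes as exact and carry no replicate error. For LOX2 the estimate lay between -1.07 and 1.07 on the log2 scale, and for AOC2 between -1.13 and 0.01. Values of this size are not excluded, so no equality between SQH and FLH is shown for these genes.

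The light pattern at low intensity was addressed by SQL with FLL, which shares the FLL libraries with FLH and FLL. Here 3 of the 10 were listed, and all 3 were higher in SQL, against 8.2% of tested genes listed in either direction and 3.99% as higher in SQL. LOX4 was 4.53-fold higher in SQL (log2 fold change 2.18, SE 0.73, adjusted p = 0.0399 with DESeq2), LOX3 3.50-fold (1.81, SE 0.58, adjusted p = 0.0332) and AOS 2.90-fold (1.53, SE 0.51, adjusted p = 0.039). Their median of 1.81 lies near the 1.99 over the 833 genes listed as higher in SQL. None of the 3 was listed at an adjusted p of 0.01 or under a Bonferroni threshold. For genes that were not listed, the thresholds left the estimate a range of 0.47 to 2.26 for CYP94B3 and 0.14 to 1.28 for AOC2. Both ranges lie above 0, and that of LOX2 (-1.07 to 1.21) includes 0. The ranges carry no replicate error, and the 95% interval solved below for CYP94B3 (-0.17 to 2.93) includes 0.

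Under square light, SQH with SQL, none of the 10 genes was listed by DESeq2, where 3.11% of 21349 tested genes were. The p-values of genes that were not listed are not used here, so a count at an unadjusted p is available only for the 7 genes whose levels could be solved as described next. Of these, 2 (LOX3 and CYP94B3) had a 95% interval that excluded 0. That of CYP94B3 began at 0.04 and carries no error of the level solution, so it is not clear of 0. The limit for a gene that was not listed was a Wald statistic of 3.16. It left room for a difference of up to 1.34 on the log2 scale for LOX2 and 2.87 for CYP94C1. For 5 of the 10 genes the other comparisons narrowed the estimate to values above 0, with CYP94B3 between 0.70 and 2.49 higher in SQH. These ranges carry no replicate error, so a range above 0 does not show a difference. LOX4 was among the 5 (0.25 to 2.29), and its solved 95% interval (-1.04 to 1.80) included 0.

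For the 7 genes listed in a pair of comparisons, the level in each regime was solved from the deposited SEs. The counting part of an SE depends on the absolute level in each regime, the remaining part is shared by all regimes, and so the SEs of a pair of comparisons with a common regime fix the level there. The fold changes then give the adjoining regimes, and the mean over all regimes gives the last. This was chosen after seeing the data. On genes whose levels are known from at least 3 tables, each left out of the fit in turn, the solved level of FLH was within -0.08% and 0.16% of the known level in 80 genes and that of FLL within -1.12% and 4.59% in 44 genes. All 28 solved levels of the enzyme genes lay within the limits derived from the listing thresholds. The solution and the limits take the same fold changes and mean as exact, so this is a single check per gene. They are levels of the fitted model, and the replicate error is that of the fold changes.

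In all 7 genes the lowest level was in FLL. The highest was in FLH in 6 genes, and in AOS the order of FLH and SQH was undecided, since it turned when every fitted constant of the solution was set to 1. CYP94C1 was at 5192 normalised counts in FLH, 412 in SQL, 399 in SQH and 131 in FLL. CYP94B3 was at 3201 in FLH, 546 in SQH, 183 in SQL and 70.3 in FLL. FLH stands far above the other regimes in both oxidases. The difference of SQH from SQL in CYP94C1 was -0.05 on the log2 scale (SE 0.91), and it turned to 0.69, with SQL at 253, when the constants were set to 1. In CYP94B3 it was 1.58 (SE 0.79), and 2.23 with those constants, which put SQL at 119.

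OPR3 was at 30586 normalised counts in FLH, 6047 in SQH, 3706 in SQL and 1850 in FLL. AOC3 was at 2481 in FLH, 611 in SQL, 549 in SQH and 151 in FLL. In both genes FLL had the lowest solved level and the square regimes lay between. The difference of SQH from SQL was 0.71 (SE 0.62) in OPR3, and 1.202 with constants of 1. In AOC3 it was -0.15 (SE 0.73) and turned to 0.08 with constants of 1.

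LOX4 was at 9646 normalised counts in FLH, 2943 in SQH, 2260 in SQL and 499 in FLL. LOX3 was at 10647 in FLH, 7737 in SQH, 3100 in SQL and 885 in FLL. AOS was at 36115 in FLH, 35244 in SQH, 21583 in SQL and 7449 in FLL. The difference of SQH from FLH was -0.04 (SE 0.51, 95% interval -1.03 to 0.96) in AOS, -0.46 (SE 0.58, -1.60 to 0.68) in LOX3 and -1.71 (SE 0.73, -3.14 to -0.29) in LOX4. These intervals carry no error of the level solution, and its largest checked errors put the LOX4 difference between -1.80 and -1.40. LOX4 was not listed between SQH and FLH, where the thresholds left its estimate a range of -1.84 to 0.2, so a difference is not shown.

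The solved difference of SQL from FLL in the genes not listed there was 2.02 (SE 0.73, 95% interval 0.58 to 3.46) in AOC3, beside 1.81 in LOX3 and 1.53 in AOS, which were listed. It was 1.66 (SE 0.91) in CYP94C1, 1.38 (SE 0.79) in CYP94B3 and 1.003 (SE 0.62) in OPR3, with intervals that include 0. With constants of 1 these differences were 1.79 in AOC3, 0.92 in CYP94C1, 0.73 in CYP94B3 and 0.51 in OPR3.

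The share of a gene's summed level that came from FLH was 36.0% in AOS, 47.6% in LOX3, 62.8% in LOX4, 65.4% in AOC3, 72.5% in OPR3, 80.0% in CYP94B3 and 84.7% in CYP94C1. The share from FLL ran from 1.76% in CYP94B3 to 7.42% in AOS. The order of these shares has no test of its own.

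**Figure D3:**
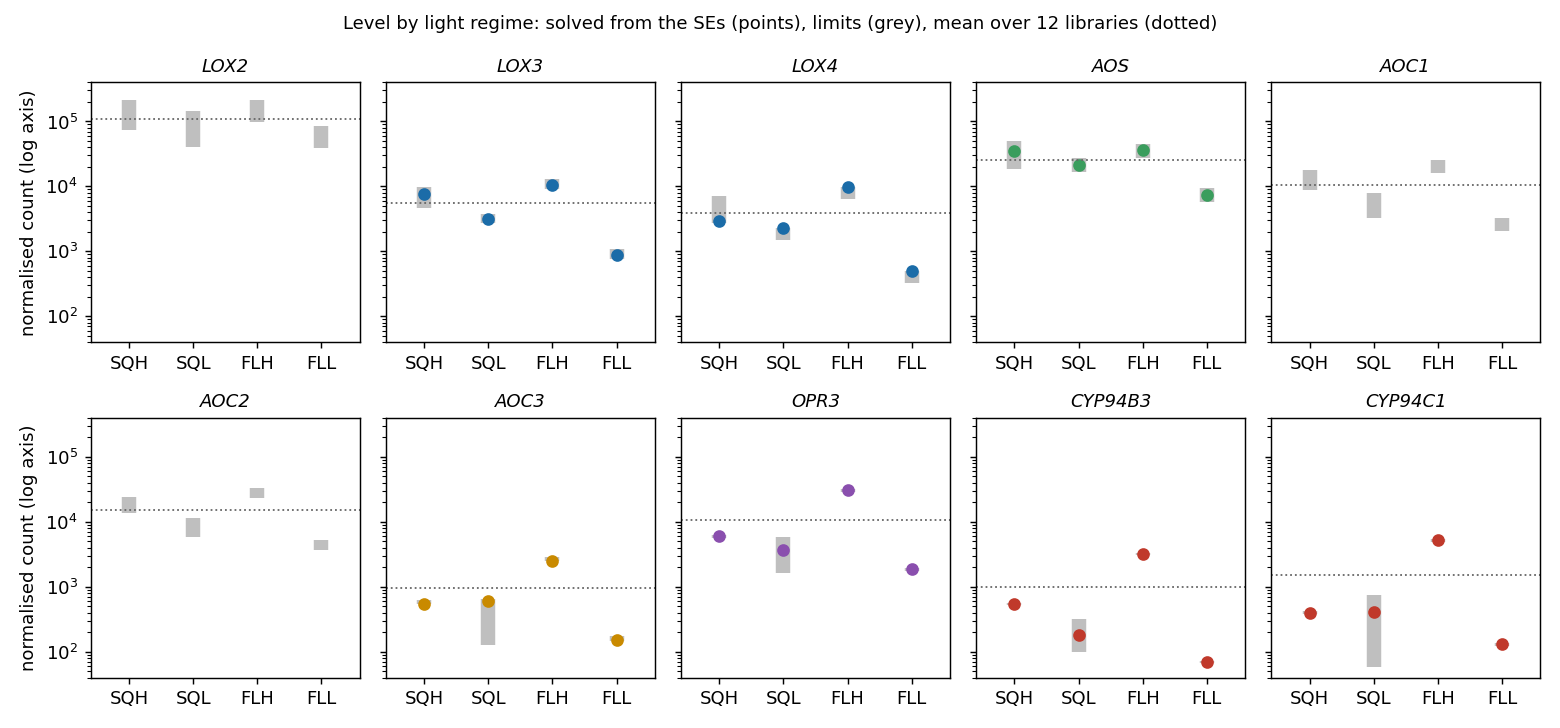
Normalised count (y axis, log scale) of each enzyme gene in SQH, SQL, FLH and FLL, with points for the levels solved from the SEs, grey bars for the limits set by the listing thresholds and a dotted line for the mean over 12 libraries. In all 7 genes with points FLL is lowest, and FLH is highest in all but AOS, where the SQH point (35244) cannot be ordered against FLH (36115).

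The planned test of whether the intensity difference depended on the light pattern needs a gene listed in both intensity tables or both pattern tables, and none of the 10 was. From the solved levels, the difference of FLH from FLL exceeded that of SQH from SQL in all 7 genes. The 95% intervals lay above 0, but they were not adjusted for the number of genes and carry no error of the level solution. The largest errors in the check of that solution put the AOS excess between 1.39 and 1.62, so its interval is not clear of 0. The excess was 1.57 on the log2 scale (SE 0.72, 95% interval 0.16 to 2.98) in AOS, the smallest, and 5.36 (SE 1.28, 2.85 to 7.87) in CYP94C1, the largest. It was 2.27 in LOX3, 3.34 in OPR3, 3.89 in LOX4, 3.93 in CYP94B3 and 4.20 in AOC3. All 7 genes are also listed in FLH with FLL, so the excess carries the selection of that table, and no p is given.

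The contrasts that cross both intensity and pattern followed from the same levels. SQH was above FLL with an interval that excluded 0 in 6 of 7 genes, from 1.71 (SE 0.62) in OPR3 to 3.13 (SE 0.58) in LOX3, and the exception was CYP94C1 (1.61, SE 0.91, interval -0.17 to 3.39). FLH was above SQL in 6 of 7 genes, up to 4.13 (SE 0.78) in CYP94B3, and the exception was AOS (0.74, SE 0.51, interval -0.26 to 1.74).

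LOX2, AOC1 and AOC2 were listed in a single table, so that only limits exist. LOX2 lay between 99513 and 213007 normalised counts in FLH and between 39614 and 84794 in FLL. AOC2 lay between 23597 and 33607 in FLH, 13760 and 23761 in SQH, 5778 and 11411 in SQL, and 3676 and 5235 in FLL. These ranges of AOC2 overlap only between FLH and SQH, but they carry no replicate error. AOC1 lay between 15904 and 25177 in FLH and between 2040 and 3229 in FLL.

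The other genes of the pathway were counted by lists of 60 genes written for this purpose. In FLH with FLL 21 of the 60 (35.0%) were listed, 20 of them higher in FLH, with a median of 2.30, where 9.89% of all tested genes were listed. In SQH with FLH 13 (21.7%) were listed, 10 of them higher in FLH, and in SQL with FLL 5 (8.33%), all higher in SQL, both near the shares of all tested genes (22.2% and 8.2%). In SQH with SQL 5 (8.33%, against 3.11%) were listed, of which 4 were higher in SQH. The numbers of these comparisons are not independent, because tables that name the same regime share its libraries.

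Of 15 genes for fatty acid desaturases, lipases, LOX6, AOC4, import into the peroxisome, beta-oxidation and conjugation, only OPCL1, which activates the OPDA product for beta-oxidation, was listed in FLH with FLL (2.30, SE 0.58, adjusted p = 0.00237 with DESeq2), a share of 6.67% against 9.89% of all tested genes. In SQH with FLH the thiolase KAT2 (-2.44, SE 0.54) and the multifunctional protein AIM1 (-1.33, SE 0.49), both of beta-oxidation, were higher in FLH, a share of 13.3% against 22.2%. AOC4 and LOX6, which belong to the same families as AOC3 and LOX3, and JAR1, which makes JA-Ile, were not listed in any table.

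Of 9 other genes for turnover and modification, 5 were listed in FLH with FLL (55.6%, against 9.89% of all tested genes). All 5 were higher in FLH. JOX2, which hydroxylates jasmonic acid, had the largest Wald statistic (1.90, SE 0.26, adjusted p = 7.49e-10), and CYP94B1, a relative of CYP94B3, rose by 3.23 (SE 0.80, adjusted p = 0.00195). CYP94B1 was also higher in SQH than in SQL (3.05, SE 0.80, adjusted p = 0.00943), where neither CYP94B3 nor CYP94C1 was listed. ILL6, an amidohydrolase that cleaves JA-Ile, was 1.83 higher in FLH (SE 0.49). In SQH with FLH 2 of the 9 were listed, a share of 22.2%, as over all tested genes, with opposite signs. JMT, which methylates jasmonic acid, was 3.64 higher in SQH (SE 1.05, adjusted p = 0.00484), and JOX2 was higher in FLH (-1.44, SE 0.26).

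Of 13 JAZ repressor genes, 8 were listed in FLH with FLL, a share of 61.5% against 9.89% of all tested genes. All 8 were higher in FLH, with a median of 2.26. The largest Wald statistics belonged to JAZ10 (4.36, SE 0.47, adjusted p = 3.71e-16), JAZ8 (4.56, SE 0.66) and JAZ7 (4.79, SE 0.82), and these fold changes lie between those of LOX4 and the oxidases. In SQH with FLH 4 were listed, a share of 30.8% against 22.2% of all tested genes. All 4 were higher in FLH, with JAZ8 at -3.15 (SE 0.65), JAZ7 at -3.24 (SE 0.82) and JAZ1 at -1.81 (SE 0.47). In SQL with FLL JAZ7 (2.996, SE 0.82) and JAZ10 (1.64, SE 0.47) were higher in SQL, a share of 15.4% against 8.2%.

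Of 10 genes for perception and regulation, ORA47, an activator of jasmonate synthesis genes, was 2.91 higher in FLH than in FLL (SE 0.79, adjusted p = 0.00609), and MYC4 was lower in FLH (-1.88, SE 0.46, adjusted p = 0.00161). MYC4 was also 2.82 higher in SQH than in FLH (SE 0.46), and MED25, a Mediator subunit that works with MYC2, was lower there (-0.68, SE 0.24). COI1 was not listed in any table. In SQH with SQL the listed genes besides CYP94B1 were MYC2 (1.93, SE 0.54), MYC4 (1.60, SE 0.46) and JAZ12 (0.78, SE 0.23), higher in SQH, and ORA59 (-2.45, SE 0.74), higher in SQL, and MYC4 thus had the opposite sign under square light and under fluctuating light. Of 9 response genes, 5 were listed in FLH with FLL (55.6%, against 9.89% of all tested genes). All 5 were higher in FLH, led by VSP1, a storage protein gene of the MYC branch (4.37, SE 0.88, adjusted p = 7.05e-05), CORI3 (3.21, SE 0.67) and JR1 (2.12, SE 0.54). ORA59 (-5.18, SE 0.73) and PDF1.2 (-1.94, SE 0.62), of the ethylene branch, were higher in FLH than in SQH, and TAT3 (4.58, SE 1.02) and VSP1 (2.75, SE 0.88) were higher in SQL than in FLL.

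Of the other lipoxygenases and OPDA reductase relatives in the lists, LOX1, LOX5, OPR1 and OPR2, none was listed in FLH with FLL. The 9-lipoxygenases LOX1 (1.13, SE 0.39, higher in SQH than in FLH) and LOX5 (1.84, SE 0.56, higher in SQL than in FLL) were each listed once.

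**Figure D4:**
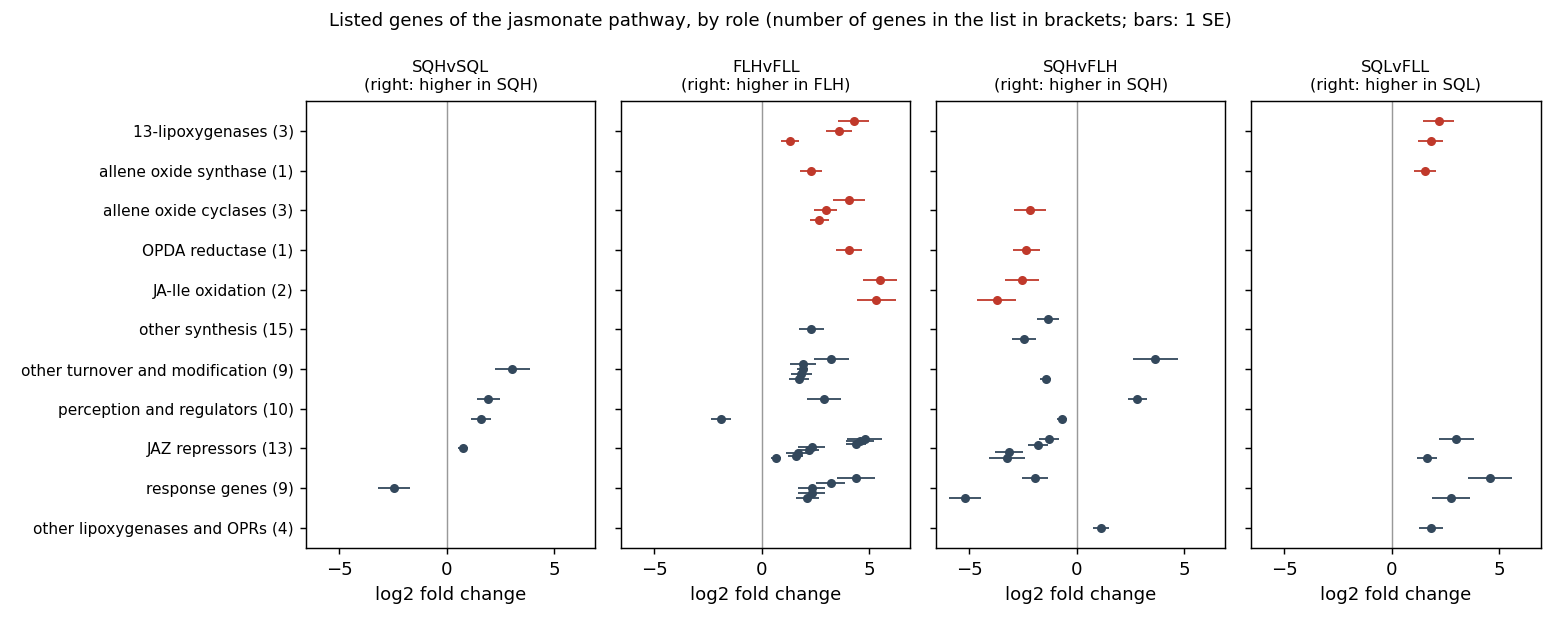
Log2 fold change with 1 SE (x axis) of every listed gene of the jasmonate pathway in the 4 comparisons, grouped by role (y axis, number of genes in each list in brackets), with the 10 enzyme genes in red. For FLH with FLL all listed genes except MYC4 (-1.88) lie to the right of 0.

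Genes with a fold change like that of the enzymes were looked for outside the lists. The rule used the comparisons listing at least 5 of the 10 genes, which left FLH with FLL alone, and 5 of 2027 genes came within 0.03 of the median of 3.82: AT5G02050, ABR1, ERF13, DIC2 and AT2G24560. A rule over a pair of comparisons was added after seeing the data. For CYP94B3, CYP94C1, OPR3 and AOC3 (medians 4.68 in FLH with FLL and -2.45 in SQH with FLH) the nearest of 1125 genes were AT2G21510 (4.41 and -2.48) and RTFL12 (4.48 and -2.13), followed by AT2G27080, OCT6 and AT3G49320. For LOX3, LOX4 and AOS (medians 3.59 in FLH with FLL and 1.81 in SQL with FLL) the nearest of 348 genes were AT2G32210 (3.56 and 1.75), the mitochondrial carrier genes UCP5 (3.68 and 1.72) and DIC2 (3.84 and 1.93), the transcription factor gene WRKY18 (3.57 and 1.98) and AT3G57450 (3.76 and 2.001). Unlike LOX3, LOX4 and AOS, all 5 of these were also listed as higher in FLH than in SQH, at -2.70 for UCP5 to -3.77 for DIC2. Likeness here is distance between log2 fold changes only.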

How the data were processed

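RNA-seq of polyadenylated leaf RNA from 12 libraries in 4 light regimes was used, grouped by library title. The submitters' processing notes name HISAT2, SAMtools, featureCounts, DESeq2 and the TAIR10 genome, and versions and the strandedness of counting are not given in the sources used here. The authors deposited 4 tables of called genes, whose columns are their own comparisons. They hold a signal deposited by the authors as the mean of counts divided by size factors over all libraries, the authors' log2 fold changes with SEs on the log2 scale, a deposited Wald score (log2 fold change divided by SE), and deposited p-values with adjusted p-values. No other values were at hand, so they are printed as the authors' deposited values and no model was refitted.

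The number of tested genes follows from how adjusted p and p relate at each rank (21349 for SQH with SQL, 20865 for the others). Genes that were not listed were bounded by the largest p of the comparison and the gene's largest SE, with listed fold changes taken as exact. Levels were solved from SEs with 1 constant per regime, fitted on 131 genes with a mean count of at least 500. Intervals are 95% (1.96 SE), and they assume that the SEs hold with 3 libraries a regime. Those of differences between solved levels carry no error of the level solution. The reading of the sign, the number of tested genes, the constants and the solved level of FLH were tested on simulated data. The bounds, the other solved levels and the intervals were not. An identifier repeated in 1 table was counted as given. Promoters and exons came from TAIR10.1, whose coordinates are used throughout. The 10 genes and all lists were chosen with earlier results of these data known. All 10 genes were named, as were the 3 genes of each other list with the largest absolute Wald statistic in each of 3 comparisons. Genes named beyond that rule (JAR1, LOX6, AOC4, COI1 and the 5 genes of SQH with SQL) were chosen after their values were seen. Alternatives were stricter thresholds, a count filter, and the promoter window. Python 3.11.15, pandas 2.3.3, numpy 2.4.6 and scipy 1.17.1 were used.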

Additional observations from a re-analysis of the deposited data

How the results depend on the processing

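No paired analysis was possible because the tables carry no values per library, and for the same reason no replicate could be left out, no other normalisation tried and no count model fitted. With a log2 fold change of 1 or more in either direction, a 95% interval wholly beyond 0.5, or a mean count of at least 100, the counts of 10, 4, 3 and 0 listed genes did not change. With a stricter adjusted p of 0.01, FLH with FLL kept a count of 9 (LOX2 lost), SQH with FLH of 3 (AOC3 lost) and SQL with FLL of 0. Under a Bonferroni threshold over the genes tested FLH with FLL came to 8 (LOX2 and AOS lost), SQH with FLH to 0 and SQL with FLL to 0. Counting only bases before the start, AACGTG was found in 2 of the 10 genes in place of 4, since that window excludes the matches of LOX3 and AOC2, and CACGTG in 1. The reading of the sign held in all 137 checks with a difference of at least 2.

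With every constant set to 1 (an alternative chosen after seeing the data), the solved levels in SQH, FLH and FLL changed by a factor of at most 1.03, which was enough to turn the order of SQH and FLH in AOS (35885 and 35760). The SQL level, which is a remainder, changed by more than 1.5 in 2 genes, from 183 to 119 normalised counts in CYP94B3 and from 412 to 253 in CYP94C1, and from 3706 to 2696 in OPR3 and from 611 to 534 in AOC3. The difference of SQH from SQL turned sign in CYP94C1 (from -0.05 to 0.69 on the log2 scale) and AOC3 (from -0.15 to 0.08). The SQL levels and the differences of SQH from SQL of these 4 genes are the least certain values given.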
